A study of Mus musculus with 9 samples.

Results

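miR-375 is the miRNA described here, with both arms of its single mouse hairpin, Mir375, followed through 9 small RNA-seq libraries. Its reads were taken as all alignments whose 5′ end lies on that hairpin, on the minus strand of chromosome 1, with the reference start of the 3p arm at position 74947256 of the deposited mm9-style coordinates. Mir375 is 1 of 1005 mouse miRNA hairpins in the RefSeq table, and 396 listed miRNAs and isomiRs (forms of a miRNA that differ at their ends) could be placed at a 5′ end in these data. The hairpin received 1125758, 1323670 and 2181092 reads in the 3 TS-GAIIx libraries and 963480, 1006031 and 951943 reads in the 3 v1.5-GAIIx libraries. It received 1755958 reads in NF-HiSeq, 684 in the TruSeq liver library and 398 in the NEXTflex liver library. Of all these reads, 0.00400% were at alignments whose count was not a whole number, that is, shared with another place in the genome.

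The study compared kits for building small RNA libraries. MIN6, a mouse insulinoma line that secretes insulin, was grown in 25 mM glucose with 10% serum and sequenced with Illumina TruSeq (TS-GAIIx, n = 3), Illumina v1.5 (v1.5-GAIIx, n = 3) and NEXTflex V2 (NF-HiSeq, n = 1). Liver came from 1 young adult female C57BL/6J mouse, injected with saline and fasted, and was sequenced once with TruSeq (TS-HiSeq-ML) and once with NEXTflex (NF-HiSeq-ML). TruSeq libraries of MIN6 run on the HiSeq were not analysed here. TS-GAIIx and v1.5-GAIIx shared the sequencer, the facility and the date, so they differ by kit. NF-HiSeq differed from both also in sequencer, facility and date. By the study's methods MIN6 RNA was extracted with a Norgen column kit at UNC and with TRIzol at NIH. NF-HiSeq shared its RNA with 1 of the TruSeq HiSeq libraries, which are not analysed here. No GAIIx library is said to share that RNA, so RNA sample and extraction may differ as well. Kit cannot be told apart from these. The study calls the replicates biological, and its abstract speaks of the same batch of cells for both Illumina kits. Its methods do not say whether the replicates came from separate cultures, so p-values measure the spread between these libraries. Level is given as RPMM, the reads at a 5′ end for every 1000000 mapped reads of the library. Mapped reads per library, in units of 1000000, ranged from 6.64 to 25.6.

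A miRNA is cut from a hairpin precursor, first by Drosha and then by Dicer, which leaves a duplex of a 5p and a 3p strand. Usually a single strand is kept by an Argonaute protein and the other is degraded. The kept strand finds target mRNAs mainly through its seed, so a shift of the 5′ end by a single base changes the seed. The 3′ end can be trimmed, or extended by enzymes that add U or A. miR-375 is known as a miRNA of pancreatic islets and other endocrine cells, where it restrains insulin secretion and is needed for a normal beta cell mass.

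The sequences below are the ones the results turn on, and are written 5′ to 3′ from the RefSeq hairpin (GRCm38.p6). The hairpin lies at chr1:74900658-74900721 on the minus strand of that build. It overlaps no gene body, and its nearest annotated neighbours are Cfap65, 1350 bp upstream in the direction of the RNA, and Cryba2, 1816 bp downstream. The RefSeq table used here gave the mature 5p sequence and the hairpin, and the 3p sequence was read from the hairpin at the commonest start and length. In the hairpin, capitals mark the 3p strand of 22 nt.
Mir375 hairpin: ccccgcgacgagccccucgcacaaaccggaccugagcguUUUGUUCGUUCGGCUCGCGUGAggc

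The 5′ starts differ in their seed, bases 2 to 8, in capitals below. No other of the 1738 mature mouse miRNAs in the RefSeq table shares the seed of any of the 3p starts at −1, 0, +1 or +2, counted from the reference start in the direction of the RNA.
miR-375-3p, reference start, 22 nt: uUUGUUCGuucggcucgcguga
miR-375-3p, start −1, 23 nt: uUUUGUUCguucggcucgcguga
miR-375-3p, start +1, 21 nt: uUGUUCGUucggcucgcguga
miR-375-3p, start +2, 20 nt: uGUUCGUUcggcucgcguga
miR-375-5p: gCGACGAGccccucgcacaaac

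The forms below differ at the 3′ end or in their tail, and their shares are compared between the kits further on. Capitals mark the bases that the hairpin does not encode at that place. After base 22 of the 3p strand the hairpin continues with G, so neither a U nor an A at base 23 is encoded.
miR-375-3p with G in place of base 22: uuuguucguucggcucgcgugG
miR-375-3p with U in place of base 22: uuuguucguucggcucgcgugU
miR-375-3p with 1 added U: uuuguucguucggcucgcgugaU
miR-375-3p with 1 added A: uuuguucguucggcucgcgugaA
miR-375-3p with added AU: uuuguucguucggcucgcgugaAU
miR-375-3p from start +2 with added UU: uguucguucggcucgcgugaUU
miR-375-3p, 19 nt: uuuguucguucggcucgcg

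miR-375-3p made up a large part of the MIN6 libraries and was a minor miRNA in liver. The reference start held 163124, 186331 and 174391 RPMM in TS-GAIIx-1, 2 and 3. It held 72815.8, 80288.2 and 87326.8 RPMM in v1.5-GAIIx-1, 2 and 3, and 64950.1 RPMM in NF-HiSeq. Every TS-GAIIx library was above every v1.5-GAIIx library, and NF-HiSeq was below all 6. In liver the same start held 39.97 RPMM with TruSeq (659 reads, Poisson 95% interval 37.0 to 43.1) and 26.7 RPMM with NEXTflex (384 reads, 24.1 to 29.5). All intervals on reads given here cover counting error only, since the reads have no molecular identifiers.

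**Figure D1:**
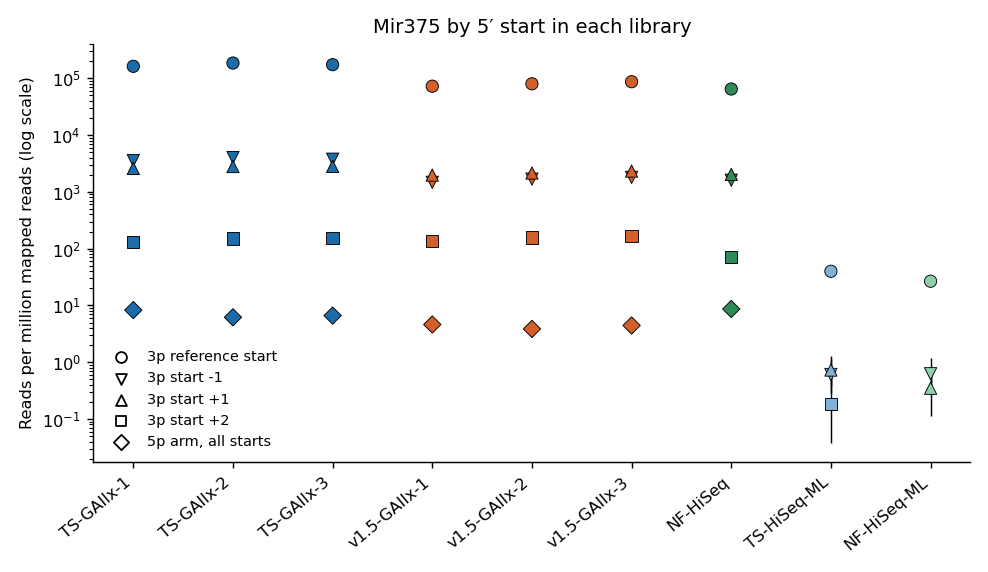
RPMM (log scale) at each 5′ start of Mir375 in the 9 libraries, by marker, with Poisson 95% intervals and color for kit and source. The 3p reference start stands highest in every library, and a start without reads is not drawn, as for the 5p arm in liver.

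The labels' cell types could be checked with other miRNAs. In MIN6, miR-375-3p was the most abundant of all 5′ ends in each of the 6 GAIIx libraries. The next was miR-27b-3p with TruSeq, at 72255.9 to 79269.7 RPMM, and let-7f-2-5p with v1.5, at 46180.5 to 49135.6 RPMM. This ranks places in the genome, among which reads with several placements were divided. Copies of a miRNA, such as those of let-7f, were not summed. Whether miR-375-3p exceeds such a sum with v1.5 was not tested. In NF-HiSeq miR-375-3p ranked 3, behind both copies of miR-7a-5p, another endocrine miRNA, of which the higher had 130070 RPMM. These copies had 463 and 441 RPMM on average with TruSeq in MIN6, and 3.37 and 3.24 RPMM in TruSeq liver. NEXTflex liver had 372 and 306 RPMM, close to TruSeq MIN6, so across kits this marker did not separate the sources. Over the kits in MIN6, miR-184-3p had 206 to 1993 RPMM, against 4.61 and 4.31 in TruSeq and NEXTflex liver. miR-182-5p had 12397.5 to 28998.3 RPMM in MIN6, against 848 and 79.1 in liver. In liver miR-375-3p ranked 138 and 137 among 287 listed reference miRNAs with TruSeq and NEXTflex. There the highest listed miRNAs were miR-192-5p, with 82266.4 RPMM, and miR-122-5p, the hepatocyte miRNA, with 532452 RPMM. Among the MIN6 libraries, miR-122-5p had 0.390 ± 0.219 RPMM (SD, n = 3) with TruSeq, 2.01 ± 0.332 (n = 3) with v1.5 and 128 in NF-HiSeq. The other hepatocyte miRNAs of the list separated the sources less well. miR-192-5p had 1342.38 RPMM with TruSeq, 556.5 with v1.5 and 249 in NF-HiSeq on average, against 82266.4 and 6026.41 in liver. miR-194-5p, at 2 positions, had 39.2 to 364 RPMM over the kits in MIN6 and 1993.86 to 10878 in liver. miR-802-5p had 56.3 RPMM with TruSeq and 41.1 with v1.5 but 628 in NF-HiSeq, which is above the 504 of TruSeq liver and below the 858 of NEXTflex liver. This marker therefore did not tell NF-HiSeq from liver.

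Between MIN6 and liver the level of miR-375-3p differed in the same direction with both kits that were used for both. With TruSeq the mean of MIN6 was 4369 times the liver value (counting interval 4048 to 4723), and with NEXTflex it was 2434 times (2202 to 2697). With a single liver library per kit these ratios have no replicate check on the liver side. The TruSeq libraries of MIN6 and liver also differ in sequencer, which cannot be told apart from the tissue. In the bulk liver sample, few cells that contain miR-375 and little of it per cell cannot be told apart. Whether any of these reads came from another library was not tested.

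Whether the kit alters the measured level of miR-375 was asked by v1.5-GAIIx against TS-GAIIx. The reference starts of both arms were lower with v1.5, and the 5′ starts moved unequally. The reference start had a mean of 174615 ± 11605 RPMM (SD, n = 3) with TruSeq and 80143.6 ± 7256.6 RPMM (n = 3) with v1.5. Its log2 fold change, v1.5 over TruSeq, was −1.12 ± 0.08 (SE; adjusted p = 6.83e-05, by the quasi-likelihood test of edgeR, adjusted after Benjamini-Hochberg over 16486 5′ ends). Start −1 had 3555.56, 4026.91 and 3766.16 RPMM with TruSeq against 1473.37, 1680.43 and 1800.47 RPMM with v1.5, a log2 fold change of −1.20 ± 0.09 (adjusted p = 8.04e-05, edgeR). Both of these starts lost more than 1 unit of log2, and their groups did not overlap.

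Start +1 had 2592.21, 2799.75 and 2816.49 RPMM with TruSeq and 1978.32, 2152.69 and 2331.21 RPMM with v1.5. It fell by 0.35 on the log2 scale (SE 0.07, adjusted p = 0.00537, edgeR), less than the reference start. Start +2 had 132, 151 and 152 RPMM with TruSeq and 136, 157 and 169 RPMM with v1.5, and these groups overlapped. Its log2 fold change of 0.08 ± 0.11 did not pass the test (adjusted p = 0.514, edgeR), and its sign turned with the hairpin left out of the library size, with TMM or DESeq2 factors and with exact alignments only. From start −1 to +2 the log2 fold change thus went from −1.20 to 0.08, with the values at −1 and 0 within a standard error of each other.

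The 5p arm, the strand that is usually degraded, was measured by few reads. There were 55, 42.3 and 79.7 with TruSeq, 58.2, 46 and 46 with v1.5, and 221 in NF-HiSeq. This gave 8.28, 6.18 and 6.62 RPMM with TruSeq, 4.61, 3.85 and 4.43 RPMM with v1.5, and 8.64 RPMM in NF-HiSeq. Its reference start fell by 0.71 on the log2 scale in v1.5 (SE 0.17, adjusted p = 0.00878, edgeR). Liver had 0 reads of the 5p arm, which allows up to 0.439% of the hairpin's reads with TruSeq and 0.754% with NEXTflex. These limits lie far above the shares in MIN6 (0.00320% to 0.0126% over the 7 libraries), so the arm could not be compared between the tissues.

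The rarer starts of the 3p arm lay on both sides. Start −2 had 3.16, 5.11 and 4.48 RPMM with TruSeq and 0.476, 0.838 and 0.578 RPMM with v1.5, a log2 fold change of −2.73 ± 0.30 (adjusted p = 3.28e-04, edgeR). Start +3 had 3.31, 4.67 and 2.99 RPMM with TruSeq and 7.69, 6.37 and 6.93 RPMM with v1.5, a log2 fold change of 0.94 ± 0.21 (adjusted p = 0.00669, edgeR). So −2 was lower and +3 higher with v1.5, without overlap. The reads at −2 hardly ever matched the hairpin. Of 21, 35 and 54 reads with TruSeq, 0, 0 and 1 aligned exactly, and of 6, 10 and 6 reads with v1.5, 1, 0 and 0 did. Their first base was mismatched in 0% to 17.1% with TruSeq and in 50% to 90% with v1.5, and with exact alignments only the start had too few reads to be tested. In v1.5-GAIIx 43.3% to 56.9% of the reads at +3 had a mismatched first base, and with exact alignments only its log2 fold change was 0.29 and did not pass (adjusted p = 0.274, edgeR). Start +4 was higher by 0.90 ± 0.31 on the log2 scale (adjusted p = 0.0367, edgeR), on 6 to 28 reads a library, and this call was lost under most alternatives. Start +5 did not pass (1.84 ± 0.80, adjusted p = 0.0774, edgeR).

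Of the 9 starts tested in this comparison, 5 were lower in v1.5, 2 were higher and 2 did not pass. Over all 5′ ends tested, 76.0% passed in either direction, 30.6% with a lower and 45.5% with a higher level in v1.5. The median log2 fold change of all 5′ ends was 0.58, and 26.7% of them had a fold change as low as that of the miR-375-3p reference start or lower. For the hairpin as a whole, the mean was 181301 ± 11952 RPMM (SD, n = 3) with TruSeq and 84126.3 ± 7610.6 RPMM (n = 3) with v1.5, a ratio of 0.464. The groups did not overlap, and the exact permutation test (two-sided) gave p = 0.1, the smallest value that 3 against 3 libraries can give. As 18.1% of TruSeq reads and 8.41% of v1.5 reads fell on this 1 hairpin, the hairpin itself weighs on every library size, and with its reads left out the log2 fold change of the reference start was −1.29.

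NF-HiSeq was lower still. Its reference start stood at 0.372 times the TS-GAIIx mean and 0.810 times the v1.5-GAIIx mean. Its value lay below the lowest library of both groups, but with a single library there is no test. This library also held miR-122-5p at 128 RPMM and miR-802-5p at 628 RPMM, above the mean of both GAIIx groups, and their part in the result was not tested. In liver, NF-HiSeq-ML had 0.668 times the level of TS-HiSeq-ML (counting interval 0.587 to 0.758).

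When scaled to miR-30e-5p, the miRNA by which the study scaled its kits for comparison with PCR, the kits stood in another order. miR-30e-5p itself had 10444.3 ± 912 RPMM (SD, n = 3) with TruSeq, 11655.2 ± 526 (n = 3) with v1.5 and 5722.63 in NF-HiSeq. The ratio of miR-375-3p to miR-30e-5p was 16.7 ± 0.692 (SD, n = 3) with TruSeq, 6.87 ± 0.317 (n = 3) with v1.5 and 11.3 in NF-HiSeq. NF-HiSeq thus lay between the other kits by this measure and below both in RPMM. In liver the ratio was 0.00908 with TruSeq and 0.0130 with NEXTflex.

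Most other endocrine and epithelial miRNAs of beta cells moved in the direction opposite to miR-375. The list held miR-7a-5p (at 2 hairpins), miR-7b-5p, miR-184-3p, the cluster of miR-182, miR-183 and miR-96, and the miR-200 family with miR-141 and miR-429. Of its 12 positions, 2 of which hold the same mature miR-7a-5p, 10 were higher in v1.5 and 2 were lower (against 45.5% and 30.6% of all 5′ ends). They had a median log2 fold change of 2.00 against 0.58 over all 5′ ends. miR-182-5p was lower, from 28998.3 ± 624 RPMM (SD, n = 3) with TruSeq to 12397.5 ± 813 RPMM with v1.5, a log2 fold change of −1.23 (adjusted p = 1.34e-05, edgeR). miR-183-5p was lower by 0.23 (log2 fold change −0.23, adjusted p = 0.00442, edgeR). At the other end, miR-200c-3p had a log2 fold change of 3.73 (adjusted p = 7.30e-07, edgeR), from 1942.32 to 25764.2 RPMM. miR-375-3p exceeded miR-200c-3p by 82.9 to 95.2 times with TruSeq and by 2.83 to 3.35 times with v1.5.

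**Figure D2:**
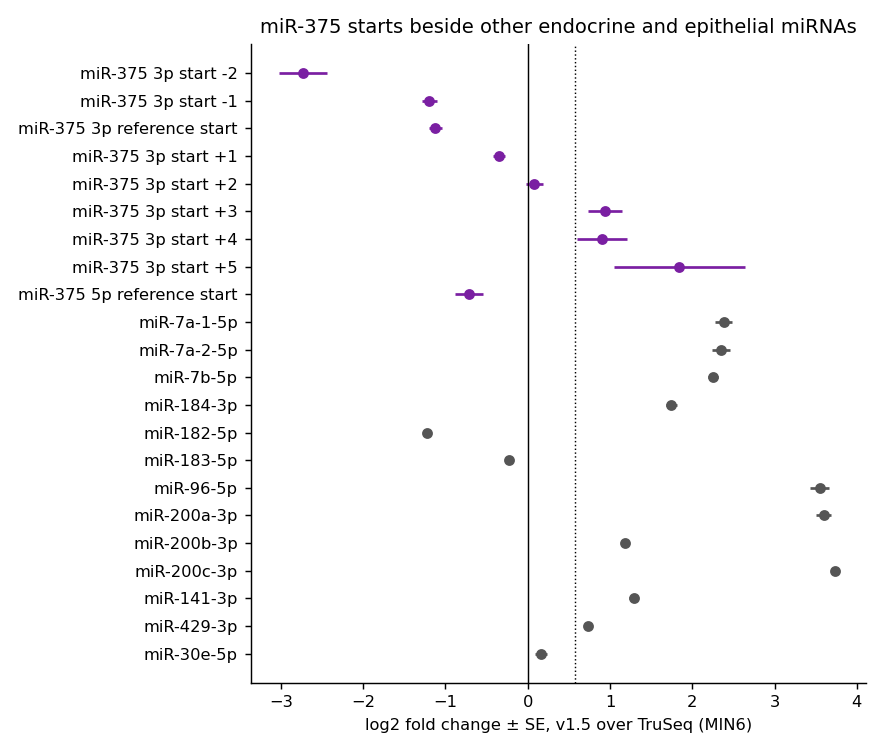
log2 fold change ± SE, v1.5-GAIIx over TS-GAIIx (3 libraries each), for 9 starts of Mir375 (purple) and for the other listed miRNAs with miR-30e-5p (grey). The solid line is 0 and the dotted line is the median of all 5′ ends, 0.58; the starts of miR-375 run from −2.73 at −2 to 1.84 at +5, and miR-200c-3p, at 3.73, is at the far right.

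The listed reference miRNAs whose level followed miR-375-3p best over the 7 MIN6 libraries were miR-301a-3p (Pearson r = 0.994), miR-423-3p (r = 0.994) and miR-30a-5p (r = 0.990), of 255 candidates. Over all 9 libraries they were miR-369-5p (r = 0.998), miR-7a-2-3p (r = 0.996) and miR-487b-3p (r = 0.995), of 282 candidates. The measure is log2(RPMM + 1), and libraries share kits and tissue, so these are descriptions. miR-301a-3p went from 3066.1 ± 192 RPMM (SD, n = 3) with TruSeq to 1177.6 ± 48.7 with v1.5 and 985 in NF-HiSeq, the same order of kits as miR-375-3p.

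The reads began at nearly the same place with every kit. The reference start took 96.3% to 96.4% of the hairpin's reads in the TS-GAIIx libraries, 95.2% to 95.3% in v1.5-GAIIx, 94.6% in NF-HiSeq, and 96.3% and 96.5% in the 2 liver libraries. Start −1 took 2.08% to 2.10% with TruSeq, 1.93% to 1.99% with v1.5 and 2.34% in NF-HiSeq. Start +1 took 1.45% to 1.55% with TruSeq, 2.54% to 2.59% with v1.5 and 2.97% in NF-HiSeq. So in MIN6 the longer start −1 was more frequent than +1 with TruSeq, and +1 was the more frequent with the other kits. In liver the order was the reverse, with 10 reads at −1 and 12 at +1 with TruSeq and 9 and 5 with NEXTflex, counts too low to tell the starts apart.

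The relative use of the starts was tested with edgeR's diffSpliceDGE, which compares the log2 fold change of each start with that of the whole hairpin. Of 8 starts within 5 nt of the reference, 5 were used more with v1.5 and 1 less, and over all loci 38.6% of starts passed. Start +1 was used more, by 0.76 (adjusted p = 0.0335, edgeR), and start +2 by 1.19 (adjusted p = 0.00805, edgeR). With exact alignments only the value at +2 was 0.71 (adjusted p = 9.64e-04, edgeR). The call for start +1 was lost when any v1.5 library was left out (adjusted p from 0.0733 to 0.109, edgeR). Start −2 was used less, by −1.63 (adjusted p = 5.54e-05, edgeR), on the few and almost wholly mismatched reads described above, and it could not be tested with exact alignments only. The reference start (−0.02) and start −1 (−0.09) did not pass (adjusted p = 1.00 and 0.927, edgeR). As the reference start holds most of the hairpin's reads, this test holds its value near 0 and cannot show whether its use changed. Its share of the hairpin, given above, did not overlap between TruSeq and v1.5.

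The first base of start −1, a U in the hairpin, was read as another base in part of the reads. It was mismatched in 1.02% to 1.05% of its reads with TruSeq, in 1.64% to 2.02% with v1.5 and in 8.98% in NF-HiSeq. At the reference start the first base was mismatched in 0.0627% to 0.0649% of reads with TruSeq and 0.0886% in NF-HiSeq. In v1.5-GAIIx it was mismatched in 0.233% to 0.782%.

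miR-375-3p reads were mostly 22 nt long in all libraries. At the reference start, 89.8%, 91.0% and 90.5% of the reads had this length in TS-GAIIx, 81.9%, 81.8% and 82.0% in v1.5-GAIIx, 86.4% in NF-HiSeq, and 91.7% and 91.1% in liver with TruSeq and NEXTflex. The TruSeq libraries were above the v1.5 libraries, and NF-HiSeq was between them. The difference lay in the neighbouring lengths. Reads of 21 nt made up 1.59% to 1.93% with TruSeq and 6.75% to 7.11% with v1.5, and reads of 23 nt made up 3.71% to 3.98% and 7.16% to 7.36%.

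A single shorter length went the other way. Reads of 19 nt made up 2.78%, 2.30% and 2.43% of the start in TS-GAIIx, and 0.183%, 0.188% and 0.189% in v1.5-GAIIx. NF-HiSeq had 0.0597% and TruSeq liver 0.152%, from 1 read. In TS-GAIIx these reads were more frequent than those of 20 nt (0.534% to 0.631%), so the profile had a second peak at 19 nt, which the v1.5 and NEXTflex libraries did not show. NF-HiSeq had a smaller rise at 18 nt, of 0.129%, and no reads below that length. TruSeq liver did not show the peak of TruSeq MIN6, but it was run on another sequencer, which cannot be told apart from the tissue.

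Of 15 lengths from 14 to 28 nt, 12 were used more with v1.5, 1 was used less and 2 did not pass, against 54.0% of all lengths called over all 5′ ends (edgeR's diffSpliceDGE). The length used less was 19 nt, by −3.74 on the log2 scale (adjusted p = 4.28e-33, edgeR). Lengths of 21 nt and 23 nt were used more, by 2.00 (adjusted p = 1.04e-21, edgeR) and 0.92 (adjusted p = 6.28e-09, edgeR). The lengths of 22 nt (−0.14, adjusted p = 0.399, edgeR) and 28 nt (0.81, adjusted p = 0.0615) did not pass. As 22 nt holds most of the reads, the test holds its value near 0, although its share did not overlap between TruSeq and v1.5.

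**Figure D3:**
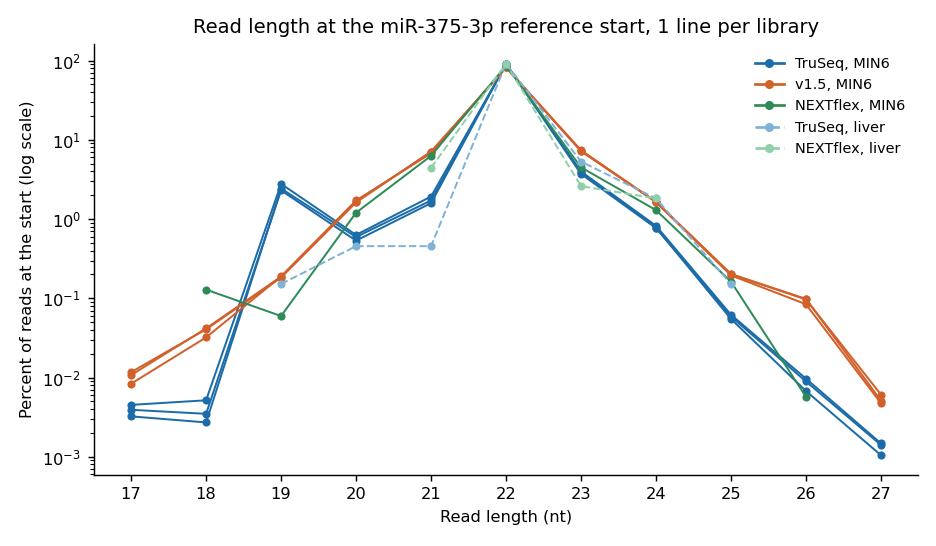
Percent of the reads at the miR-375-3p reference start (log scale) by read length from 17 to 27 nt, 1 line per library, dashed for liver. All lines peak at 22 nt, and the 3 TruSeq lines of MIN6 have a second peak at 19 nt, of 2.30% to 2.78%, where v1.5 has 0.183% to 0.189% and the other lines less.

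The base at the 3′ end differed between the kits. Reads that matched the hairpin over all 22 nt made up 72.7% to 74.1% of the reference start in TS-GAIIx, 75.7% to 78.9% in v1.5-GAIIx and 81.9% in NF-HiSeq. Reads of 22 nt with a G in place of the A at base 22 made up 15.2%, 15.3% and 15.4% in TS-GAIIx. They made up 0.0232%, 0.0241% and 0.0195% in v1.5-GAIIx and 0.189% in NF-HiSeq. In the TruSeq liver library they were 65 of 659 reads, or 9.86% (Wilson 95% interval 7.81% to 12.4%), and in the NEXTflex liver library 5 of 384, or 1.30% (0.557% to 3.01%). The form was thus frequent in both sources with TruSeq and rare in both with NEXTflex. For MIN6, v1.5 and TruSeq groups did not overlap, and the exact permutation test gave p = 0.1, the smallest that 3 against 3 allows. This form was singled out after its values were seen.

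The G was tied to the end of the read. Among reads that ended at base 22, the share with G there was 17% to 17.2% in TS-GAIIx, and among reads that ran past base 22 it was 0.0946% to 0.126%. The same held at the other starts, where reads that ended at base 22 carried G in 16.7% to 17.3% at start −1, 16.8% to 17.3% at +1 and 16.6% to 16.9% at +2. Measured over all reads of a start, so that added tails count too, the share was 14.9% ± 0.348 at −1, 13.97% ± 0.274 at +1 and 4.89% ± 0.0949 at +2 (SD, n = 3). Few other small RNAs had a single last base of G that the genome lacks as often. Of 1090 other 5′ ends with at least 100 RPMM, 2 (0.183%) had a higher share with TruSeq, and their median was 0.0789%. With v1.5, 464 of the 1090 had a higher share than miR-375-3p.

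Removing all reads with a mismatch, and with them this form, moved the log2 fold change of the reference start, v1.5 over TruSeq, from −1.12 to −0.98. The kits still differed without them (adjusted p = 2.43e-05, edgeR). Grouped into 3 classes, reads with mismatches in the last 3 nt alone made up 20.8% to 21.3% with TruSeq and 10.7% to 11.2% with v1.5. Their relative use was −0.92 (adjusted p = 0.0327, edgeR), where 11.2% of classes over all 5′ ends passed. The class moved this way through the form with G. Without that form it made up 5.67% ± 0.317 with TruSeq and 11.01% ± 0.308 with v1.5 (SD, n = 3), the opposite direction, and the groups did not overlap (exact permutation p = 0.1). The call for the whole class was lost when 5 of the 6 libraries were left out in turn (adjusted p from 0.0553 to 0.172, edgeR). Reads with mismatches elsewhere were used more with v1.5 (1.56, adjusted p = 0.00423, edgeR), but the value rested on v1.5-GAIIx-1. That library had 5.18% of such reads where the other v1.5 libraries had 1.40% and 1.44%, and without it the value was 0.71 (adjusted p = 0.143, edgeR). The exact class did not pass (0.14, adjusted p = 1.00, edgeR), but it holds most of the reads, so the test holds its value near 0. Its share was 78.2% ± 0.274 with TruSeq and 86.3% ± 1.86 with v1.5 (SD, n = 3), without overlap.

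**Figure D4:**
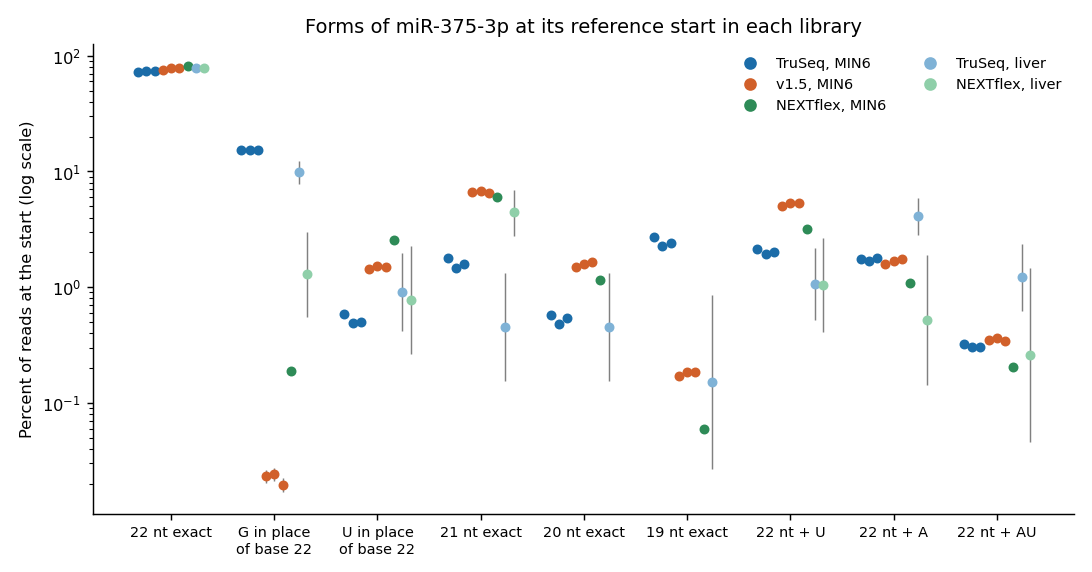
Percent of reads at the reference start (log scale) in 9 forms of miR-375-3p, 1 point per library with Wilson 95% intervals. G in place of base 22 stands at 15.2% to 15.4% in the TruSeq MIN6 libraries and 9.86% in TruSeq liver, and at 1.30% or less with the other kits; a form without reads in a library has no point.

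Additions after base 22 were compared by base. A single added U was found on 2.12%, 1.93% and 2.00% of reads in TS-GAIIx, on 5.01%, 5.31% and 5.30% in v1.5-GAIIx and on 3.17% in NF-HiSeq. A single added A was found on 1.74%, 1.68% and 1.79%, on 1.59%, 1.70% and 1.74%, and on 1.09%. So the share with a single U did not overlap between TruSeq and v1.5, and that with a single A did (exact permutation p = 0.1 and p = 0.5). Added AA was rarer but higher with v1.5, at 0.387% ± 0.00988 against 0.0947% ± 0.00480 with TruSeq (SD, n = 3), and all tails of A alone summed to 2.08% ± 0.0875 against 1.83% ± 0.0544. Added AU was found on 0.304% to 0.325% of reads with TruSeq, 0.345% to 0.365% with v1.5 and 0.203% in NF-HiSeq. None of these 3 overlapped between TruSeq and v1.5 (exact permutation p = 0.1 each). The ratio of a single U to a single A was 1.12 to 1.22 in TS-GAIIx, 3.04 to 3.15 in v1.5-GAIIx and 2.91 in NF-HiSeq. U in place of base 22, which is a loss of A and a gain of U, was found on 0.486% to 0.583% of reads with TruSeq, 1.43% to 1.53% with v1.5 and 2.58% in NF-HiSeq.

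In liver the tail of miR-375-3p looked different with TruSeq. There 27 of 659 reads, 4.10% (Wilson interval 2.83% to 5.90%), had an added A, and 7 reads, 1.06% (0.515% to 2.18%), an added U. The ratio of U to A was 0.259, against 1.12 to 1.22 in MIN6 with the same kit. The interval for A lay above all 3 MIN6 libraries with TruSeq. NEXTflex liver had 2 reads with A and 4 with U, too few for a comparison. The TruSeq MIN6 and liver libraries also differ in sequencer, and may differ in facility and RNA extraction (Norgen for liver), none of which can be told apart from the tissue.

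Tails of U differed between the 5′ starts. Of the reads at start −1, 1.55% to 1.85% were full length with a tail of U alone in TS-GAIIx, and at the reference start 2.21% to 2.43% were. At start +1 the share was 8.02%, 7.91% and 8.23%. At start +2 it was 55.1%, 54.4% and 56.5%. In v1.5-GAIIx the shares were 3.71% to 4.01% at −1, 5.60% to 5.92% at 0, and 14.1% to 14.9% at +1. At start +2 of v1.5-GAIIx they were 61.1%, 61.8% and 62.8%. NF-HiSeq had 3.95%, 3.94%, 6.82% and 45.7% from −1 to +2. In all 7 MIN6 libraries the share at +2 exceeded that of every other of these starts. This pattern was also singled out after its values were seen.

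With TruSeq and v1.5, most tails at start +2 had more than a single U. The form with UU, 22 nt long and printed above, made up 35.1% to 35.7% of the start in TS-GAIIx and 33.4% to 34.9% in v1.5-GAIIx, more than the untailed form of 20 nt (24.3% to 24.7% and 15.6% to 19.1%). In NF-HiSeq the order was the reverse, with 9.55% for UU and 52.8% untailed. By count the UU form rested on 309, 364 and 655 reads in TS-GAIIx and 574, 651 and 597 in v1.5-GAIIx. Tails of at least 2 U and nothing else made up 36.4% of start +2 with TruSeq and 36.3% with v1.5. None of the other 1080 and 1058 5′ ends of at least 100 RPMM that had reads with these kits had a larger share, and their median was 0%. In NF-HiSeq the share was 19.3%, and 1 of 937 others had more.

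Ends at base 19 were found at the other starts too. In TS-GAIIx the exact form that ends there made up 1.90% to 2.56% of start −1, 2.27% to 2.74% of the reference start and 3.40% to 3.64% of start +1. In v1.5-GAIIx it made up 1.02% to 1.24% of start −1 0.170% to 0.184% of the reference start and 0.0454% to 0.0762% of start +1. NF-HiSeq had 0.00244%, 0.0590% and 0.00576%. At all 3 starts the TruSeq libraries lay above the v1.5 libraries, by unequal factors.

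**Figure D5:**
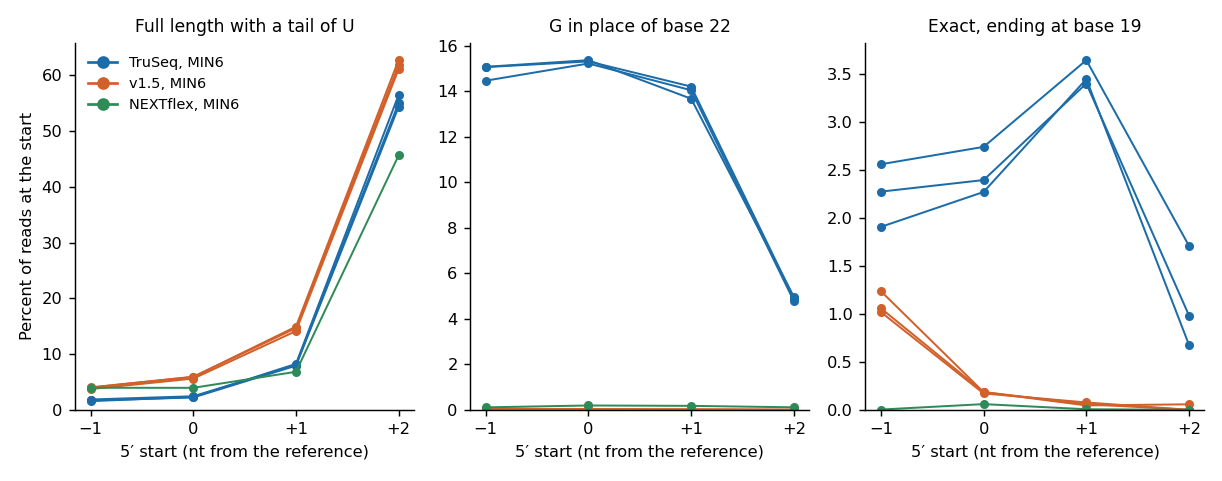
Percent of the reads at each 5′ start of the 3p arm, from −1 to +2, that are full length with a tail of U alone (left), carry G in place of base 22 (middle) or end exactly at base 19 (right), 1 line per MIN6 library. Tails of U rise to 45.7% to 62.8% at +2 with all 3 kits, and G is at most 0.189% with v1.5 and NEXTflex.

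Minor reads on the hairpin differed in kind in NF-HiSeq. All 221 reads of its 5p arm were 23 nt long, where 47.8% to 69.1% were in the 6 GAIIx libraries. Another 157 reads began at start +4, all 18 nt long, and 87 began at hairpin base 27, of which 86 were 35 nt long. NF-HiSeq had 24 distinct exact forms on the hairpin against 46 to 63 in the GAIIx libraries. It had 1755958 reads on the hairpin, more than 5 of those 6 libraries, and the shortest was 18 nt, where the GAIIx libraries reached down to 14 nt.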

How the data were processed

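Small RNA reads were trimmed with cutadapt and aligned to mm9 with Bowtie by the authors (versions not given in the sources used here), and 4 nt were trimmed from each end of NEXTflex inserts. The deposited BED files give expected counts per alignment, since the authors divided reads with several placements; their sums exceeded the mapped reads by 0.264% to 8.41%. RPMM is the sum of counts at a 5′ end, scaled by the library's mapped reads. For tests they were rounded to whole numbers. edgeR 4.0.16 (R 4.3.3) compared v1.5-GAIIx with TS-GAIIx with mapped reads as library sizes, at 5′ ends with a mean of at least 1 RPMM, and its diffSpliceDGE compared the use of starts, lengths and edit classes (mean of at least 0.5 RPMM, at 5′ ends of 100 RPMM or more in a MIN6 library). Calls had an adjusted p under 0.05 (Benjamini-Hochberg). Scripts were tested on simulated data. Python 3.11.15, SciPy 1.17.1 and DESeq2 1.42.0 served for intervals, exact permutation tests and an alternative. Named miRNAs were Mir375 with starts within 5 nt of the commonest, the next most abundant 5′ end per library, the 3 most correlated miRNAs, fixed endocrine and epithelial miRNAs, and liver markers. The members and lists were chosen with earlier results of these data known. Alternatives were other library sizes, filters, exact or whole-number counts, a replicate block, DESeq2, and each library left out. Leaving out libraries for the NEXTflex ratios was added after seeing the data. No pair of replicates within TS-GAIIx or v1.5-GAIIx agreed within sampling noise (chi-square per degree of freedom 38.7 to 162). Same-numbered libraries did not deviate together (correlations 0.223, −0.0766 and 0.00647).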

Additional observations from a re-analysis of the deposited data

Results flagged for a closer look

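For 6 measures of miR-375-3p the NEXTflex value lay on opposite sides of the TruSeq value in MIN6 and in liver. None of these differences was tested, since NEXTflex had 1 library per source and TruSeq 1 liver library. The reference start took 94.6% of the hairpin's reads in NF-HiSeq against 96.3% to 96.4% in TS-GAIIx, but 96.5% against 96.3% in liver. Start +1 took 2.97% against 1.45% to 1.55% in MIN6, and 1.26% against 1.75% in liver. U in place of base 22 was on 2.58% of reads against 0.486% to 0.583% in MIN6, and on 0.781% against 0.910% in liver. An added U was on 3.17% against 1.93% to 2.12%, and on 1.04% against 1.06%. Reads of 23 nt made up 4.49% against 3.71% to 3.98%, and 2.60% against 5.31%. The ratio to miR-30e-5p was 11.3 against 16.0 to 17.4 in MIN6, and 0.0130 against 0.00908 in liver. The liver values rest on 384 and 659 reads at the reference start.

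Outside the hairpin, reads began in the 30 bases before it, and 5 libraries had more of them than the 3 counts that a count of 0 allows. There were 13, 12 and 21.3 in TS-GAIIx and 4, 4 and 2 in v1.5-GAIIx, and 0 in NF-HiSeq. Both liver libraries had 0, but with 684 and 398 reads on the hairpin such reads would not have been detectable there, so the tissues cannot be compared.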

How the results depend on the processing

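Of the recomputed values of the main results, 77 were classed as unchanged and 5 as moved. For fold changes, unchanged refers to direction and side of the threshold, not to size. Some main results are forms that hold most of the reads they are compared with, and the test keeps those values small. Of the other recomputed values, for single starts, lengths and classes among others, 311 were classed as unchanged. A call was lost in 20 and gained in 4, the sign turned in 4, and 6 were classed as moved. The log2 fold change of the reference start ranged from −1.50 (DESeq2 size factors) to −0.98 (exact alignments only), where TMM and DESeq2 size factors shifted the median of all 5′ ends from 0.58 to 0.22 and 0.18. The number of 5′ ends called, 12533, became 959 at a minimum of 100 RPMM, 31453 with no filter beyond 6 reads in all and 3685 with whole-number counts only, which test fewer or more ends. NEXTflex over TruSeq in MIN6, 0.372, was 0.327 with the hairpin left out of the mapped reads and 0.425 with exact alignments only. The log2 fold change of start +2, 0.08, was −0.080 with the hairpin left out, −0.27 with TMM, −0.30 with DESeq2 size factors and −0.26 with exact alignments only. The cause was not tested, and none passed the threshold.

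Leaving out 1 library at a time, the reference start ranged from −1.19 to −1.06, the 5′ ends called from 11925 to 12509 and the hairpin ratio from 0.443 to 0.485. The use of the reference start ranged from −0.0160 to −0.0151, of 22 nt from −0.149 to −0.139 and of exact reads from 0.135 to 0.161. Each of these forms holds most of the reads it is compared with, so the narrow ranges follow from the test. The NEXTflex ratios ranged from 0.360 to 0.385 (TruSeq) and from 0.775 to 0.848 (v1.5).

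With a replicate block, the reference start was −1.13 (adjusted p = 2.91e-04, edgeR) and 12850 ends were called. The 28 nt length passed there (0.81, adjusted p = 0.0398, edgeR) and without TS-GAIIx-1 (1.26, adjusted p = 0.00801). Start +5 passed with DESeq2 (1.84, adjusted p = 0.0418) and without TS-GAIIx-1 (3.06, adjusted p = 0.0113, edgeR). The call for start +4 was lost in 10 alternatives (0.53 to 0.97, adjusted p from 0.0606 to 0.239), among them each TruSeq library and v1.5-GAIIx-3 left out. Whether same-numbered libraries share more than their number is not given in the sources used here. Liver values are limited by 398 and 684 reads on the hairpin.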
